A study of Mus musculus with 6 samples.

Results

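The genes described here encode splicing and heterogeneous nuclear ribonucleoprotein (hnRNP) factors. They were chosen by name from the deposited table of 28162 genes, as those that begin with Hnrnp, Srsf, Sf3a, Sf3b, Celf, Rbfox, Elavl, Nova, Ptbp or Mbnl and have a mean of at least 10 normalized counts over the 6 libraries. Of 64 such names 60 were kept: 3 pseudogene names were left out, and so was Mbnl3, whose mean of 1.62 lay under the limit. The lowest member kept was Celf6, with a mean of 79.9. The rule uses names and the mean level only, though it was written with earlier results of these data known.

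The libraries were made from polyadenylated RNA of ventral lumbar spinal cord of SOD1G93A mice, a model of amyotrophic lateral sclerosis (ALS) that carries a mutant human superoxide dismutase 1 transgene. All animals had this genotype and all were given an intrathecal injection of an adeno-associated virus (AAV) at postnatal day 74. Tissue was taken at day 104. The virus carried green fluorescent protein in the control group (AAV-GFP, 3 libraries, called controls below) and NDNF, a secreted neurotrophic factor, in the other (AAV-NDNF, 3 libraries). No group without virus and no wild-type group was used here, and the serotype and promoter of the vectors, the sex of the animals and whether a library holds 1 animal or several are not given in the sources used here.

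Reads assigned to genes came to between 15335789 and 20060987 per library. The delivered gene, Ndnf, stood at 171, 128 and 158 in AAV-GFP libraries 1 to 3 and 5286, 7077 and 674 in AAV-NDNF libraries 1 to 3, so each library was on the side its label gives and AAV-NDNF library 3 was the lowest of its group. Transcripts of lumbar Hox genes were present (7 of 7, summed level 2092 to 3399 in controls and 2838 to 3621 after AAV-NDNF), and so was Chat of motor neurons (739 ± 119 and 783 ± 93.9). AAV-GFP library 2 stood apart from the other libraries: the 13 dorsal horn neuron markers averaged −1.77 there on the log2 scale, counted from the mean of all 6, and between −0.24 and 0.90 elsewhere. The 7 lumbar Hox genes averaged −1.40 in that library, which had their lowest sum (2092), and between −0.078 and 0.44 elsewhere. For the named members that AAV-GFP library 2 moved most, values without it are given too. They are not given for splicing genes outside the members. Values below are normalized read counts, meaning counts that the authors divided by a size factor per library; ± is the SD over n = 3 libraries. Log2 fold changes are differences of group means of log2(value + 1), positive where AAV-NDNF was higher, and so understate the change of low genes slightly.

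A pre-mRNA is spliced by the spliceosome, whose U2 particle recognises the branch point through the SF3A and SF3B complexes. SR proteins, encoded by the Srsf genes, bind exons and mostly favour their inclusion, whereas many hnRNP proteins coat the transcript and mask splice sites. Tissue-specific regulators act on top of these. NOVA, RBFOX, neuronal ELAV-like and CELF proteins direct neuronal exon choice, PTBP1 represses neuronal exons outside neurons, and MBNL proteins promote the adult splicing pattern. Several hnRNP genes, among them the human counterparts of Hnrnpa1 and Hnrnpa2b1, are known as disease genes in ALS or related disorders.

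Promoter sequences were taken for genes whose paralogs are compared below, namely the neuronal Elavl3 and Elavl4, and Ptbp1 with its neuronal paralog Ptbp2. They are RefSeq windows on GRCm38.p6 of 300 bases, from 250 before to 50 after an annotated start, written 5′ to 3′ on the gene's strand. Capitals mark the motifs GGGCGG (a GC box), CCAAT and TATAAA on either strand; these motifs do not share letters with each other, and neighbouring GC boxes can. The windows are chr9:22051974-22052273 (minus strand), chr4:110351862-110352161 (minus strand), chr10:79854182-79854481 (plus strand) and chr3:119783339-119783638 (minus strand), and the Elavl4 window is the most upstream of 4 listed starts.
Elavl3: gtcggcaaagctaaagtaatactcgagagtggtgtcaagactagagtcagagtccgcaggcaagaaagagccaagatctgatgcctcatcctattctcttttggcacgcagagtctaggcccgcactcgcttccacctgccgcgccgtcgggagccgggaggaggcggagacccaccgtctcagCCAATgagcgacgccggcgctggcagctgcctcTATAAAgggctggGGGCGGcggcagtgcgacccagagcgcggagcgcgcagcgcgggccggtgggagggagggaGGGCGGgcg
Elavl4: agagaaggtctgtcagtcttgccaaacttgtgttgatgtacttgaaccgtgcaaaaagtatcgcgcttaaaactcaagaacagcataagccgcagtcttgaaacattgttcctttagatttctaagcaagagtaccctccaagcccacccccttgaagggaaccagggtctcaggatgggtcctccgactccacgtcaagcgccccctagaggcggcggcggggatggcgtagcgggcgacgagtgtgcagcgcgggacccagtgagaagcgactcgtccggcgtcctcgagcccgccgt
Ptbp1: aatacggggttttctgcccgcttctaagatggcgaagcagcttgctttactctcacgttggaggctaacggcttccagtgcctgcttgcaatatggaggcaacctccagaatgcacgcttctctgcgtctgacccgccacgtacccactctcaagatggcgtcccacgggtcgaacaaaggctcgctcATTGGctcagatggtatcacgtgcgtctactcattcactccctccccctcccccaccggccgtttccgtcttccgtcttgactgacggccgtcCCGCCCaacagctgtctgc
Ptbp2: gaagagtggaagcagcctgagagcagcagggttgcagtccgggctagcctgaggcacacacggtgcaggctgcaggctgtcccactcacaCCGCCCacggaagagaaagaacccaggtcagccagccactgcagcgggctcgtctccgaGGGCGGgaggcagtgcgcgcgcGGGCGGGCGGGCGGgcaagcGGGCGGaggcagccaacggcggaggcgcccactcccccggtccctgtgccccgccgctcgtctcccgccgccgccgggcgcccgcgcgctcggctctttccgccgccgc

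The 4 windows differed in these motifs. Elavl3 held 2 GC boxes, 1 CCAAT and 1 TATAAA, Ptbp1 held 1 GC box and 1 CCAAT, Ptbp2 held 6 GC boxes, and the Elavl4 window held none of the 3 motifs. They contained 29, 23, 22 and 36 CG dinucleotides, in the order Elavl3, Elavl4, Ptbp1 and Ptbp2. RefSeq windows were found for 53 of the 60 members, and those without are Celf4, Hnrnpll, Hnrnpul2, Ptbp3, Rbfox2, Sf3b4 and Sf3b5. The 91 windows of these 53 genes had a median of 24 CG dinucleotides, where all 32851 windows had a median of 7. GGGCGG was present in 64.8% of member windows and 35.7% of all windows, CCAAT in 49.5% and 37.4%, and TATAAA in 11% and 13.6%. Several windows can belong to the same gene and overlap, so these shares are descriptions of sequence only.

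As a family of transcripts, splicing and hnRNP factors differed little between the groups. None of the 60 passed limma over all 17480 genes tested (smallest Benjamini-Hochberg adjusted p = 0.993), where 0.0% of all genes passed. The delivered gene Ndnf did not pass this fit either (log2 fold change 4.27, limma adjusted p = 0.530). Not passing therefore does not show that a gene was unchanged. An unadjusted p under 0.05 was reached by 1 member, Elavl4, which is 1.67% of the members against 4.68% of all genes tested. It was higher after AAV-NDNF, as were 1.15% of all genes, while 0 members and 3.53% of all genes were lower. With single libraries left out the count lay between 0 and 3. It was 0 without AAV-GFP library 1, where 3.11% of all genes had such a p, and 0 without AAV-NDNF library 2 (3.15% of all genes). Without AAV-GFP library 2 it was 2 (Celf3 and Celf5, both lower), or 3.33% against 4.7% of all genes. It was 3, or 5% of the members, without AAV-NDNF library 1 (Elavl2, Elavl4 and Sf3b6, all higher; 8.78% of all genes) and without AAV-NDNF library 3 (Elavl4 and Rbfox3 higher, Ptbp3 lower; 6.58% of all genes). The count was also 1 of 60 in edgeR's quasi-likelihood test (4.62% of all genes) and in DESeq2 (4.43%), both run on reads recovered from the normalized values. The authors' deposited table lists 0 of the 60 with a DESeq2 adjusted p under 0.05, against 0.266% of its genes, and 1 with an unadjusted p under 0.05, against 2.94%. In bulk tissue, fewer cells of a type and less RNA per cell cannot be told apart.

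The median log2 fold change of the members was 0.033, with a range from −0.26 (Ptbp3) to 0.37 (Elavl4), and the median over all genes tested was 0.00083. Of the members 39 lay above 0 and 21 below. Without AAV-GFP library 2 the median was −0.014, with 28 above and 32 below, so even the sign of this small shift rests on that library. Abundant genes as a whole also lay slightly above 0. With all 6 libraries, the 8914 genes with a mean of at least 300 normalized counts had a median of 0.018, and 4927 were above 0. The 56 members at that level had a median of 0.038, and 37 were above 0. The groups did not overlap for 2 members, Sf3b2 and Ptbp3, which is 3.33% where all genes gave 9.75%. Sf3b2 was higher after AAV-NDNF and Ptbp3 lower. Of all genes 4.26% were higher without overlap and 5.5% lower. Without AAV-GFP library 2 that count was 7, or 11.7%, where all genes gave 19.6%.

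The intervals show how large a difference could have been missed. For 49 of the 60 members the 95% interval of the log2 fold change, from limma, lay inside −0.5 to 0.5, and for 59 inside −1 to 1, the exception being Celf6. Among all genes tested 7835 of 17480 had an interval inside −0.5 to 0.5. At a mean of at least 300 normalized counts the gap was smaller, with 49 of 56 members and 6950 of 8914 genes inside. Most members are abundant: 56 have a mean of at least 300 normalized counts, and the median SD within groups was 0.13 on the log2 scale for those 56 and 0.16 for all 8914 genes at that level.

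**Figure D1:**
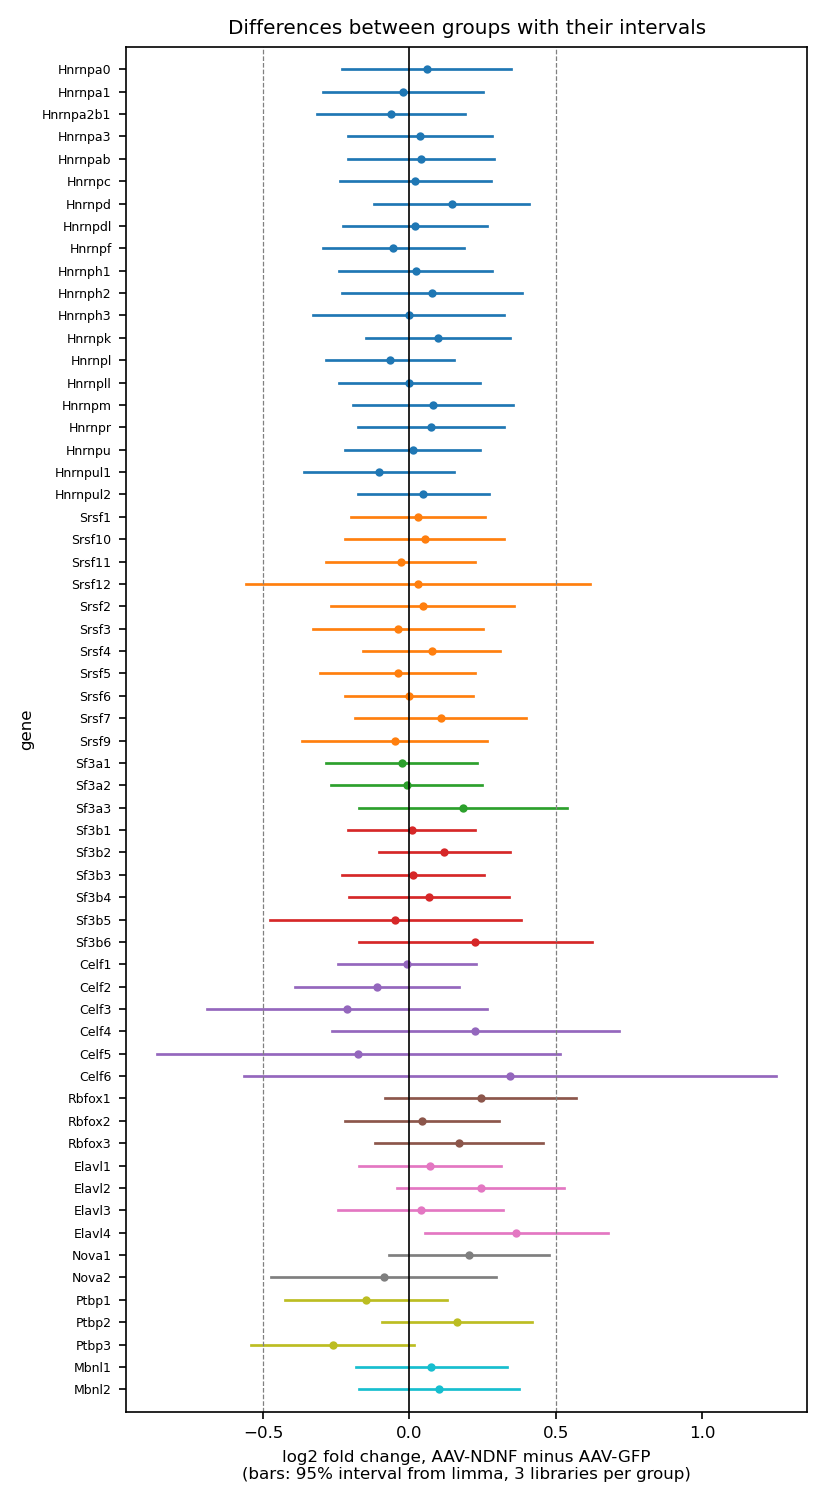
Log2 fold change (AAV-NDNF minus AAV-GFP, x axis) of each of the 60 genes (y axis, coloured by name prefix), with points for the limma estimate and bars for its 95% interval over 3 libraries per group. The interval of Elavl4 (0.052 to 0.68) is the only one that leaves out 0, and those of Celf5 and Celf6 are the widest.

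Of the 9 core U2 components none passed the test, and Sf3b2 was the only one whose groups did not overlap. Among all genes tested, 9.75% had groups without overlap. Sf3b1 (chromosome 1, 54985169 to 55027481, minus strand, mm10), the largest subunit of SF3B and the contact to the branch point, was 4393, 4157 and 4353 in AAV-GFP libraries 1 to 3 and 4310.4, 4361 and 4302 in AAV-NDNF libraries 1 to 3. All 6 values lay close together, and the log2 fold change was 0.0082 (95% interval −0.21 to 0.23). Sf3b2 was 3482, 3463 and 3627 in the controls against 3671, 3804 and 4017 with AAV-NDNF. Every AAV-NDNF library was above every control, by a small margin (0.12, interval −0.10 to 0.34), and limma gave an adjusted p of 0.997.

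Smaller SF3B subunits varied more. Sf3b6 (p14), which contacts the branch-point adenosine, was 501, 485 and 499 in the controls against 428, 605 and 746 with AAV-NDNF. The controls were nearly level and the AAV-NDNF libraries were spread, with library 1 below and libraries 2 and 3 above the controls (0.22, interval −0.17 to 0.62). Without AAV-NDNF library 1, Sf3b6 had an unadjusted p under 0.05 (log2 fold change 0.44), and without AAV-NDNF library 3 the log2 fold change was 0.04. Sf3b5, the SF3B member with the fewest normalized counts, was 389, 300.02 and 374 in the controls against 304, 284 and 457 with AAV-NDNF and overlapped between the groups (−0.048, and −0.16 without AAV-GFP library 2). Of the SF3A subunits, Sf3a1 was 958 ± 69.3 in the controls against 941 ± 83.7 with AAV-NDNF and Sf3a3 was 416 ± 36.2 in the controls against 478 ± 95.6 with AAV-NDNF, and both groups overlapped in each. Sf3a2 was 539 ± 21.4 in the controls against 535 ± 16.5 with AAV-NDNF. Its exons overlap those of a gene on the opposite strand over 16.1% of their length, so that level is uncertain: the strand setting of the counting was not given in the sources used here.

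SR protein transcripts lay near the same level in both groups, with 10 of 11 intervals inside −0.5 to 0.5. The 11 Srsf members had a median log2 fold change of 0.029, from −0.051 (Srsf9) to 0.11 (Srsf7). Srsf1, the prototype of the family, was 3084, 2901 and 3245 in the controls against 3005, 3152 and 3253 with AAV-NDNF. The groups overlapped (0.029, interval −0.20 to 0.26). Srsf6, named here after its values were seen because it varied least, was 2385, 2386 and 2295 in the controls against 2352, 2371 and 2336 with AAV-NDNF, a within-group SD of 0.024 on the log2 scale.

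Srsf2 and Srsf3 were spread more within the AAV-NDNF group than within the controls. Srsf2, a nuclear exon-binding activator, was 2172, 2319 and 2359 in the controls against 1969, 2259 and 2931 with AAV-NDNF. AAV-NDNF library 1 was the lowest of the 6 and AAV-NDNF library 3 the highest. Srsf3, the smallest of the classical SR proteins, was 1882, 2016 and 2051 in the controls against 1596, 2016 and 2228 with AAV-NDNF, with the same AAV-NDNF libraries at its ends. The exons of Srsf2 overlap an opposite-strand gene over 25.3% of their length and those of Srsf4 over 43.0%, so both levels are uncertain. Srsf5 was 4865 ± 490.5 in the controls against 4728 ± 441 with AAV-NDNF, Srsf7 was 1122 ± 116 in the controls against 1211 ± 163 with AAV-NDNF and Srsf4 was 953 ± 43.5 in the controls against 1004 ± 35.4 with AAV-NDNF. None of these 3 had an unadjusted p under 0.05. Without AAV-GFP library 2 the log2 fold change of Srsf7 was 0.033 in place of 0.11 and that of Srsf5 was −0.13 in place of −0.041. Srsf12, the least abundant member of the family, was 186, 110.4 and 222 in the controls against 142, 217 and 157 with AAV-NDNF. It was lowest in AAV-GFP library 2, and its interval was wide (−0.56 to 0.62). The log2 fold change was 0.029, and −0.26 without that library.

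The hnRNP genes were the largest set and among the tightest. All 20 had intervals inside −0.5 to 0.5, their log2 fold changes ran from −0.10 (Hnrnpul1) to 0.14 (Hnrnpd), and the median was 0.021. Hnrnpa1 (chromosome 15, 103240432 to 103246692, plus strand), a shuttling repressor of exon inclusion, was 4400.3, 3983 and 4389 in AAV-GFP libraries 1 to 3 and 3621, 4209 and 4813 in AAV-NDNF libraries 1 to 3. The lowest and the highest value were both in the AAV-NDNF group. Hnrnpa2b1, its relative that also takes part in RNA transport, was 7375, 6633 and 7609 in the controls against 6357, 6685 and 7696 with AAV-NDNF. These 2 genes, mouse counterparts of human disease genes, had log2 fold changes of −0.023 (interval −0.30 to 0.25) and −0.062 (interval −0.31 to 0.19). Without AAV-GFP library 2 the value of Hnrnpa2b1 was −0.12.

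Further hnRNP members are given by their role. Hnrnpk, a poly(C)-binding protein, was 6109, 5849.9 and 6206 in the controls against 5765, 6649 and 7096 with AAV-NDNF, with AAV-NDNF libraries at both ends. Hnrnpu, a nuclear scaffold protein and the most abundant member in raw normalized counts, was 7361, 6993 and 8076 in the controls against 7271, 7788 and 7503 with AAV-NDNF. Hnrnpd (AUF1), which binds AU-rich elements, was 2097, 1826 and 2265 in the controls against 2099, 2241 and 2485 with AAV-NDNF. AAV-GFP library 2 was its lowest, and without that library the log2 fold change was 0.058 in place of 0.14. Hnrnpul1 was 1699, 1838 and 1665 in the controls against 1782, 1643 and 1433 with AAV-NDNF, and Hnrnpll, a paralog of Hnrnpl, was 757 ± 40.03 in the controls against 757 ± 22.9 with AAV-NDNF. Their groups overlapped.

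Within the hnRNP set many genes, but not all, shared an order of the libraries that crossed the groups. AAV-NDNF library 1 was the lowest of the 6 for 10 of 20 hnRNP genes and AAV-NDNF library 3 the highest for 13 of 20, where they were lowest for 17.7% and highest for 26.4% of all genes tested. The reverse also occurred, with AAV-NDNF library 3 the lowest for 3 of 20 and AAV-NDNF library 1 the highest for 1 of 20. Of all genes tested, 26.3% were lowest in AAV-NDNF library 3 and 17.5% highest in AAV-NDNF library 1. The mean deviation of the 20 genes from the mean of the 6 libraries was 0.0083, −0.078 and 0.038 in AAV-GFP libraries 1 to 3 and −0.10, 0.012 and 0.12 in AAV-NDNF libraries 1 to 3. The 11 Srsf genes gave 0.029, −0.14 and 0.085 in AAV-GFP libraries 1 to 3 and −0.13, 0.064 and 0.091 in AAV-NDNF libraries 1 to 3. In both families the lowest libraries were AAV-GFP 2 and AAV-NDNF 1, 1 from each group. The 21 U1, U2AF and Sm core genes, which are no members, gave 0.048, −0.11 and 0.027 in AAV-GFP libraries 1 to 3 and −0.17, 0.0074 and 0.20 in AAV-NDNF libraries 1 to 3. The other 3 lists of splicing genes outside the members had other orders. The 28 genes of SR kinases and SR-related proteins were highest in AAV-NDNF library 1 (0.06) and lowest in AAV-NDNF library 3 (−0.085). The 25 tri-snRNP and catalytic genes stood at 0.038 and 0.066 in these libraries, and the 43 other regulators at −0.0014 and 0.031. The share of reads from mitochondrially encoded genes was 6.75%, 5.28% and 7.26% with AAV-GFP and 5.54%, 7.66% and 7.94% with AAV-NDNF, and its part in the order was not tested.

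**Figure D2:**
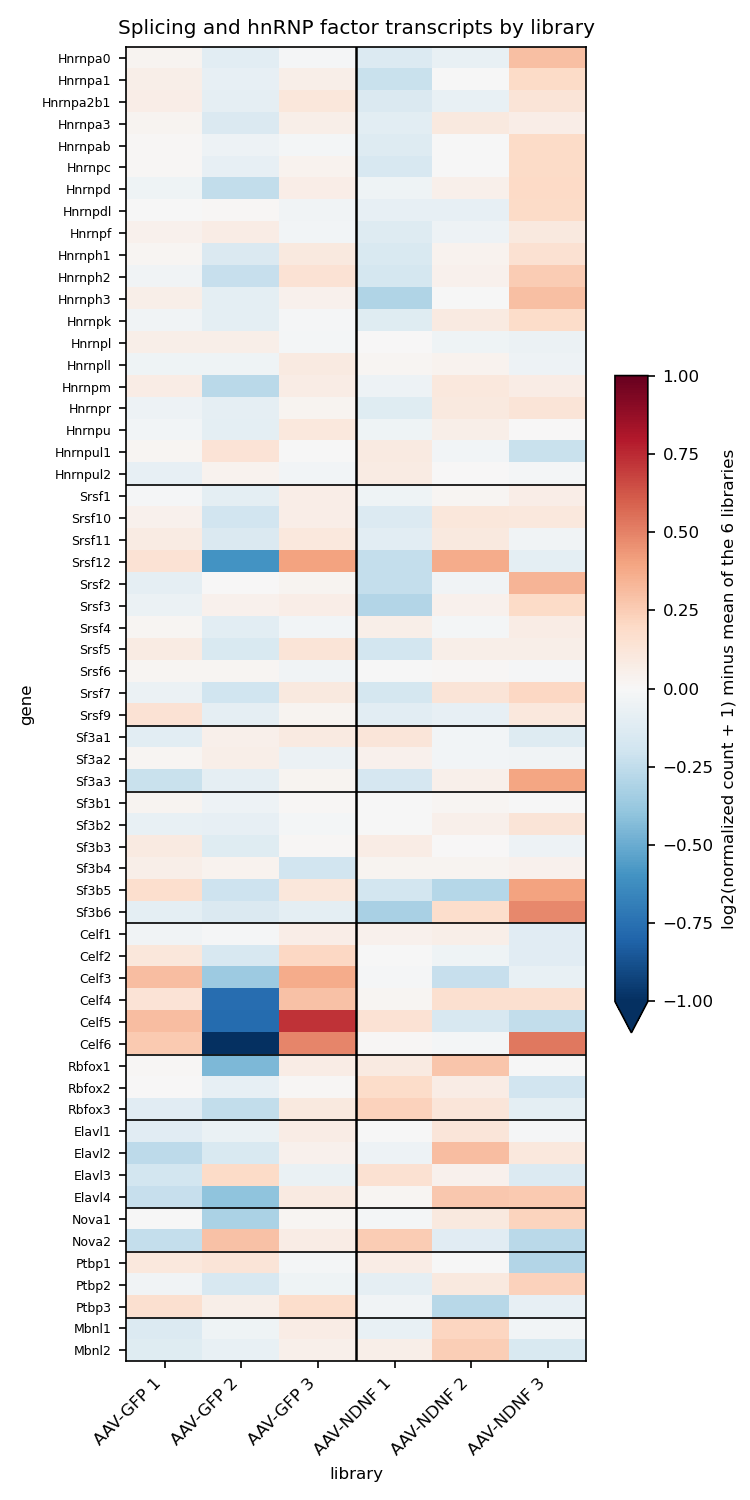
Heat map of log2(normalized count + 1) minus the mean of the 6 libraries (colour, limited to −1 and 1) for the 60 genes (rows, horizontal lines between name prefixes) in the 6 libraries (columns, vertical line between groups). Celf3 to Celf6 and Srsf12 are low in AAV-GFP library 2, and many hnRNP rows are lowest in AAV-NDNF library 1 (10 of 20) and highest in AAV-NDNF library 3 (13 of 20).

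Neuronal ELAV-like transcripts included the member with the smallest p. Elavl4 (HuD, chromosome 4, 110203722 to 110351909, minus strand), which stabilises neuronal mRNAs with AU-rich elements, was 847, 752 and 1056 in AAV-GFP libraries 1 to 3 and 1006, 1202 and 1192 in AAV-NDNF libraries 1 to 3. Libraries 2 and 3 of AAV-NDNF were the highest, while AAV-NDNF library 1 lay below AAV-GFP library 3, so the groups overlapped. The AAV-NDNF mean was 1.28 times the control mean (log2 fold change 0.37, SE 0.14, interval 0.052 to 0.68; limma unadjusted p = 0.0263, adjusted p = 0.993). The value ran from 0.26 to 0.50 when single libraries were left out. It was 0.26 without AAV-GFP library 2, where the unadjusted p was 0.107. For Elavl4 the authors' deposited table has 0.36 as the log2 fold change and a DESeq2 adjusted p that rounds to 1.

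The other ELAV-like genes lay closer to 0. Elavl2 (HuB) was 1186, 1281 and 1467 in the controls against 1370.1, 1763 and 1532 with AAV-NDNF. AAV-GFP libraries 1 and 2 lay below all AAV-NDNF values and AAV-GFP library 3 lay among them (0.24, interval −0.041 to 0.53). Elavl3 (HuC), the most abundant of the family, was 3712, 4814 and 4038 in the controls against 4679.6, 4346 and 3847 with AAV-NDNF, with a control library at each end of the 6 (0.039, and 0.14 without AAV-GFP library 2, the highest). The ubiquitous Elavl1 (HuR) was 1057 ± 74.01 in the controls against 1109 ± 59.8 with AAV-NDNF. The pan-neuronal markers, 10 of 10 present, summed to 182612 to 186900 in controls and 189242 to 221162 after AAV-NDNF, and Snap25 among them was 38137, 31726 and 37857 in the controls against 36768, 43461 and 46589 with AAV-NDNF. Averaged over the 10 markers, log2 deviations from the mean of the 6 libraries overlapped between the groups. They were 0.0003, −0.27 and 0.014 in AAV-GFP libraries 1 to 3 and −0.035, 0.12 and 0.17 in AAV-NDNF libraries 1 to 3. AAV-GFP library 2 thus had the highest control sum of these markers but the lowest mean deviation. Their part in the Elavl4 value was not tested.

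Of the RBFOX and NOVA transcripts, Rbfox1, Rbfox3 and Nova1 were lowest in AAV-GFP library 2. Nova2 was highest in that library, and Rbfox2 was lowest in AAV-NDNF library 3. Rbfox1, which binds the motif UGCAUG beside neuronal exons, was 2074, 1507 and 2176 in the controls against 2198, 2500.2 and 2052 with AAV-NDNF. AAV-GFP library 2 was the lowest, and without it the log2 fold change was 0.078 in place of 0.24. Rbfox3 encodes NeuN, the common nuclear stain of neurons, and was 1575, 1433 and 1823 in the controls against 1999, 1849 and 1584 with AAV-NDNF. The groups overlapped (0.17, interval −0.12 to 0.46, and 0.089 without AAV-GFP library 2). Rbfox2, which is also expressed outside neurons, was 2610.4 ± 92.8 in the controls against 2701 ± 347 with AAV-NDNF.

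Nova1, the NOVA paralog known for its expression in the hindbrain and ventral cord, was 2926, 2361 and 2967 in the controls against 2897, 3139.9 and 3429.7 with AAV-NDNF. AAV-GFP library 2 was again the lowest (0.20, and 0.10 without it). Nova2 was 430.3, 623 and 532 in the controls against 603, 467 and 421 with AAV-NDNF, and AAV-GFP library 2 was the highest there (−0.088, and 0.038 without it). Opposite-strand exons cover 31.7% of the Nova2 exons, so its level is uncertain.

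Celf3 to Celf6 had a wide spread, and in each the SD was larger among the controls. The median SD within groups of the 6 CELF genes was 0.35 on the log2 scale, against 0.14 for all 60. Celf1 (0.077) and Celf2 (0.14) were not wide. Celf4, a neuronal member that binds many synaptic mRNAs, was 2108, 1129 and 2345 in AAV-GFP libraries 1 to 3 and 1943, 2145 and 2139 in AAV-NDNF libraries 1 to 3. AAV-GFP library 2 stood far below all other libraries. Celf6 was 89.3, 30.3 and 105 in the controls against 74.9, 73.2 and 107 with AAV-NDNF, Celf3 was 215, 135 and 224 in the controls against 172, 148 and 164 with AAV-NDNF and Celf5, named outside the rule after its values were seen, was 277, 131 and 369 in the controls against 247, 199 and 188 with AAV-NDNF. In each of these 4 neuronal members the lowest of the 6 libraries was AAV-GFP 2. That library was also the lowest for Celf2, and so for 5 of 6 CELF genes. It was the lowest for 24 of the 60 members (40%) and for 20.2% of all genes tested. The mean deviation of Celf3 to Celf6 was 0.25, −0.79 and 0.47 in AAV-GFP libraries 1 to 3 and 0.042, −0.064 and 0.09 in AAV-NDNF libraries 1 to 3. The 13 dorsal horn neuron markers were 0.84, −1.77 and 0.90 in AAV-GFP libraries 1 to 3 and −0.24, −0.094 and 0.36 in AAV-NDNF libraries 1 to 3, and the 10 pan-neuronal markers were 0.0003, −0.27 and 0.014 in AAV-GFP libraries 1 to 3 and −0.035, 0.12 and 0.17 in AAV-NDNF libraries 1 to 3. The part of dorsal horn content in the CELF values was not tested.

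The mean of these 4 genes changed sign without that library. With all 6 libraries the log2 fold changes were −0.21 for Celf3, 0.23 for Celf4, −0.17 for Celf5 and 0.34 for Celf6, a mean of 0.046. That mean is near 0 and was −0.051 in edgeR and −0.046 in DESeq2, also with all 6 libraries. Without AAV-GFP library 2 the limma values were −0.45, −0.10, −0.60 and −0.20, a mean of −0.34, so Celf4 and Celf6 changed sign and Celf3 and Celf5 did not. Celf3 and Celf5 then had an unadjusted limma p of 0.0365 and 0.0134, with adjusted p of 0.982 and 0.664. The controls that remain had the highest dorsal horn scores of all 6 libraries. The broadly expressed Celf1 (CUGBP1), which antagonises MBNL proteins on shared exons, was 1303 ± 48.7 in the controls against 1296 ± 83.4 with AAV-NDNF, and Celf2 was 765 ± 98.3 in the controls against 705 ± 28.2 with AAV-NDNF (−0.11, and −0.22 without AAV-GFP library 2).

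**Figure D3:**
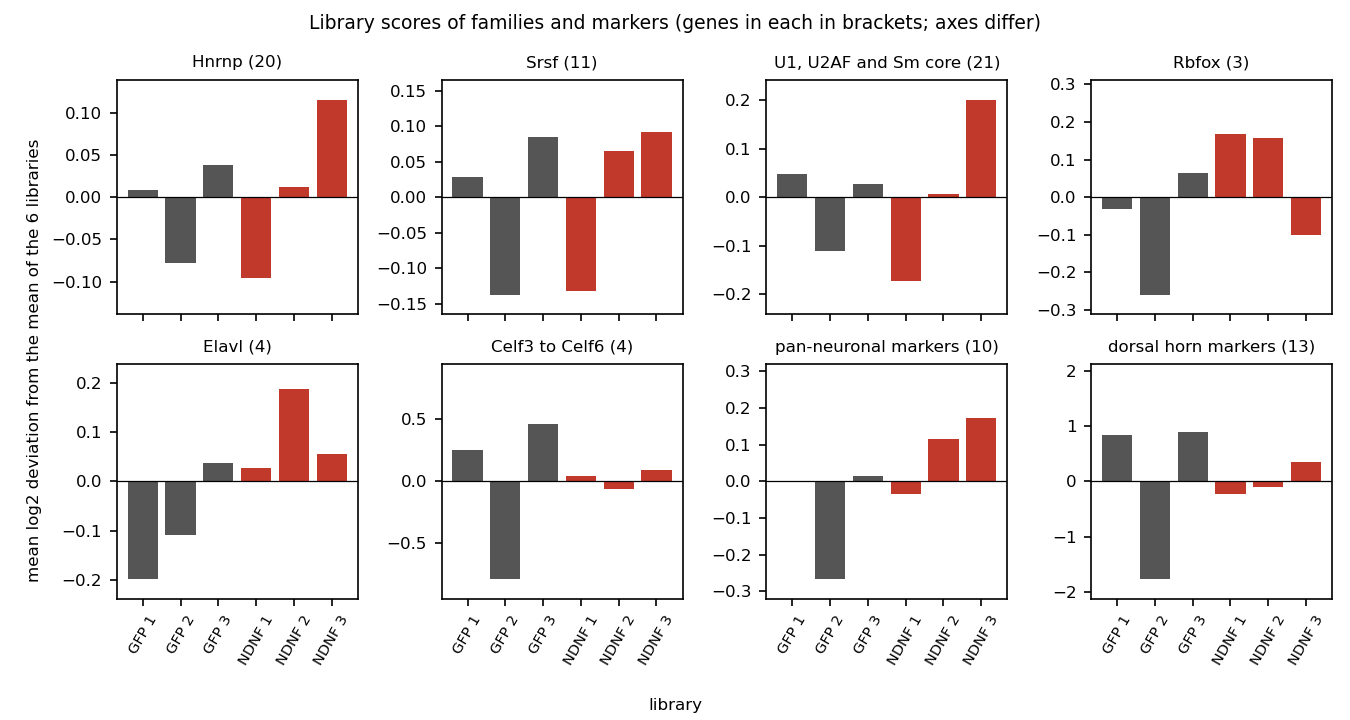
Mean log2 deviation from the mean of the 6 libraries (y axis, ranges differ between panels) for gene families and marker lists in each library (x axis; grey AAV-GFP, red AAV-NDNF; number of genes in brackets). AAV-GFP library 2 is at −0.79 for Celf3 to Celf6 and at −1.77 for dorsal horn markers, while the hnRNP scores stay between −0.10 and 0.12.

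The PTBP family held the other member without overlap. Ptbp3 was 552, 514 and 559 in AAV-GFP libraries 1 to 3 and 481, 408 and 468 in AAV-NDNF libraries 1 to 3. All AAV-NDNF values were below all controls, and the AAV-NDNF mean was 0.835 times the control mean (log2 fold change −0.26, interval −0.54 to 0.016; limma unadjusted p = 0.0624, adjusted p = 0.997). Among all genes tested, 5.5% were lower after AAV-NDNF without overlap. PTBP3 (ROD1) is known mainly from blood cells. Microglial markers, 8 of 8 present, summed to 18085 to 19488 in controls and 12954 to 15389 after AAV-NDNF, and their part in the Ptbp3 value was not tested.

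Ptbp1, which is abundant in glia and dividing cells, was 1049.9, 1066 and 963 in the controls against 1026, 974 and 793 with AAV-NDNF. AAV-NDNF library 3 was the lowest (−0.15, interval −0.42 to 0.13). Opposite-strand exons cover 20.7% of the Ptbp1 exons, so the level is uncertain. Ptbp2 (nPTB), the paralog of neurons, was 1438, 1322 and 1433 in the controls against 1391, 1582 and 1733 with AAV-NDNF, highest in AAV-NDNF library 3 (0.16, interval −0.094 to 0.42). The promoters of both genes are printed above, and neither gene had an unadjusted p under 0.05.

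Muscleblind-like transcripts overlapped as well. Mbnl1 was 2188, 2329 and 2525 in the controls against 2282, 2787 and 2361 with AAV-NDNF, and Mbnl2, the main family member of the brain, was 3764, 3888 and 4240.4 in the controls against 4272, 4869 and 3680.5 with AAV-NDNF. AAV-NDNF library 2 was the highest for both. Their log2 fold changes were 0.074 (interval −0.18 to 0.33) and 0.10 (interval −0.17 to 0.37).

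The balance between paralogs was compared as the ratio of their counts within a library, for 5 pairs. The ratio of Elavl4 to Elavl1 was 0.847, 0.73 and 0.926 in the controls against 0.934, 1.02 and 1.11 with AAV-NDNF. The groups did not overlap, with a difference of 0.30 on the log2 scale. The exact two-sided permutation p was 0.1, the smallest that 3 against 3 libraries can give, and 0.5 after Benjamini-Hochberg adjustment over the 5 pairs. The lowest AAV-NDNF ratio (0.934) was next to the highest control (0.926). Without AAV-GFP library 2 the log2 difference of 0.30 was 0.20.

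The other pairs overlapped. The ratio of Ptbp2 to Ptbp1 was 1.37, 1.24 and 1.49 in the controls against 1.36, 1.62 and 2.19 with AAV-NDNF, a log2 difference of 0.31 (exact permutation p = 0.3), and without AAV-NDNF library 3 it was 0.12. The ratio of Rbfox3 to Rbfox2 was 0.593, 0.572 and 0.682 in the controls against 0.666, 0.664 and 0.683 with AAV-NDNF (exact permutation p = 0.3). Its log2 difference of 0.13 was 0.077 without AAV-GFP library 2. Nova2 to Nova1 was 0.147, 0.264 and 0.179 in the controls against 0.208, 0.149 and 0.123 with AAV-NDNF (exact permutation p = 0.5). Its log2 difference of −0.29 was −0.057 without AAV-GFP library 2. Mbnl2 to Mbnl1 was 1.72, 1.67 and 1.68 in the controls against 1.87, 1.75 and 1.56 with AAV-NDNF (exact permutation p = 0.7). Adjusted over the 5 pairs, these p-values were 0.5, 0.5, 0.625 and 0.7.

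**Figure D4:**
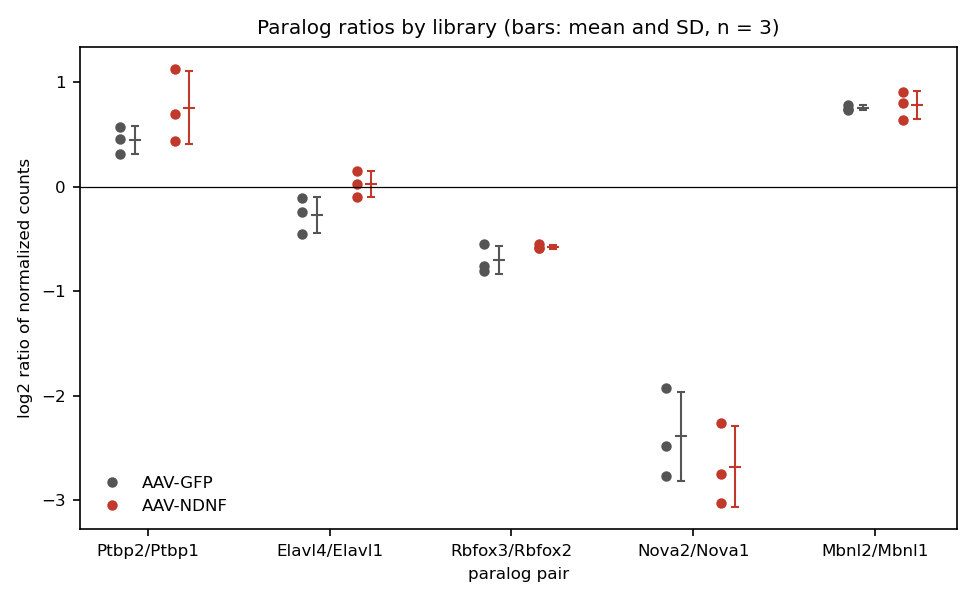
Log2 ratio of normalized counts (y axis) for 5 paralog pairs (x axis) in each library (points; grey AAV-GFP, red AAV-NDNF), with the mean and SD of 3 libraries beside them. The Elavl4 to Elavl1 points do not overlap between the groups, and those of the other 4 pairs do.

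Levels of different genes were compared per kb of exon, using the merged exons of GENCODE M21 (mm10). Merged exons are at least as long as any single transcript, so these levels are approximate and tend to be too low for genes with long alternative exons. Hnrnpa1 was the highest of the 60 at 1343 normalized counts per kb, followed by Srsf5 at 1203 and Hnrnpa2b1 at 1072. Among the ELAV-like genes the order was Elavl3 (615), Elavl4 (187), Elavl2 (172) and Elavl1 (105). Rbfox1 (474) was above Rbfox2 (326) and Rbfox3 (294), and Nova1 (338) was above Nova2 (61.2). In the PTBP family Ptbp1 stood at 206, Ptbp2 at 162 and Ptbp3 at 66.4 per kb. Of the 60 members 51 were above the median gene tested by this measure and 19 were above the 90th percentile. The lowest of all was Celf6 at 22.1 per kb.

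**Figure D5:**
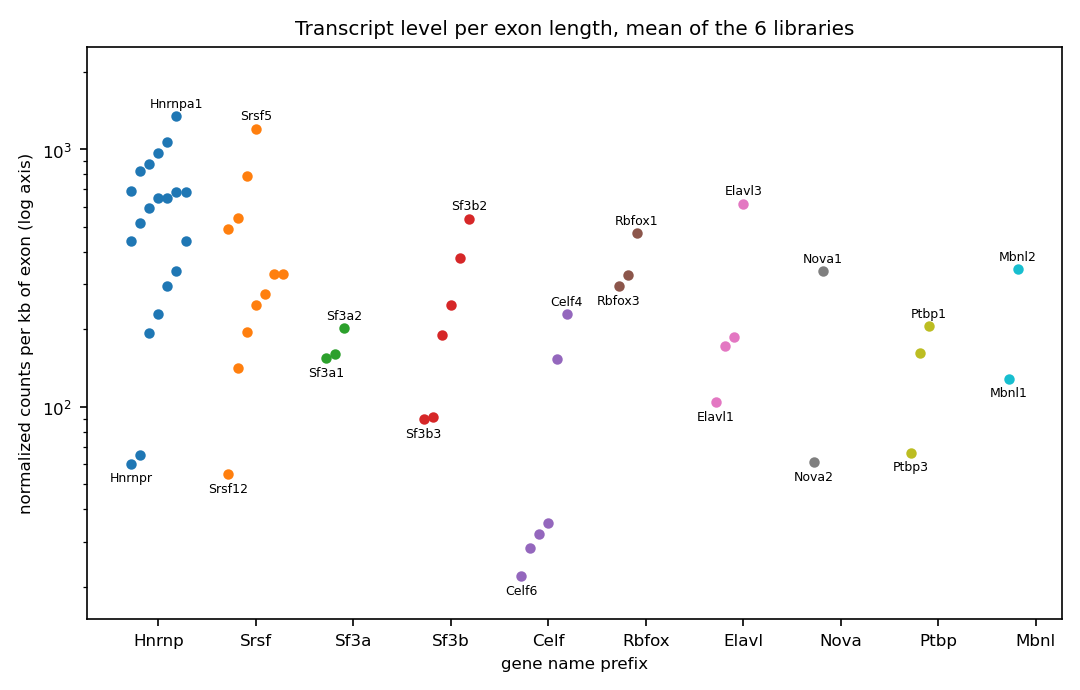
Normalized counts per kb of merged exon (y axis, log scale, mean of the 6 libraries) for the 60 genes, grouped by name prefix (x axis; sideways spread only separates points). The highest and lowest gene of each prefix are named; Hnrnpa1 and Srsf5 are the highest of all and Celf6 the lowest.

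Copies and neighbours limit some of these levels. By sequence comparison 12 members had at least 1 annotated pseudogene that matched their longest coding transcript at 95% identity or more over at least 300 bases, 54 pseudogenes in all. Hnrnpa3 had 26 and Hnrnpa1 had 9. Reads assigned to the copies in the table amounted to 1.06% of the Hnrnpa3 level and 1.09% of the Hnrnpa1 level. The levels of these members are uncertain, because how reads with several matches were treated was not given in the sources used here. Beside the genes named above, Hnrnpab and Hnrnpf shared over 10% of their exon length with opposite-strand exons and Hnrnpm with same-strand exons.

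Other splicing genes were compared as 4 lists. None of the genes in them passed limma over all genes, where 0.0% of all genes passed. In the lists, with 21, 25, 28 and 43 genes tested, 1 gene had an unadjusted p under 0.05, where 4.68% of all genes did. Of the 25 genes of the tri-snRNP and catalytic spliceosome, 20 lay above 0 and the median log2 fold change was 0.058. In the U1, U2AF and Sm core list 14 of 21 lay above 0, among SR kinases and SR-related genes 15 of 28, and among other regulators 26 of 43. Of all genes tested 8766 of 17480 lay above 0, and of those with a mean of at least 300 normalized counts 4927 of 8914. Usp39, a tri-snRNP protein needed for assembly of the active spliceosome, was 441, 383 and 407 in the controls against 505, 575 and 656 with AAV-NDNF. Its groups did not overlap (0.49, SE 0.14, limma unadjusted p = 0.00467, adjusted p = 0.605). Of all genes tested, 4.26% were higher after AAV-NDNF without overlap.

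The other 3 lists had 0 members at an unadjusted p under 0.05. The 21 genes tested of 22 in the U1, U2AF and Sm core list had a median of 0.031, with Luc7l at 1429 ± 103 in the controls against 1281 ± 96.2 with AAV-NDNF and the neuronal Sm protein gene Snrpn at 2942 ± 441 in the controls against 3454 ± 702 with AAV-NDNF. The 28 genes of SR kinases and SR-related proteins had a median of 0.018. The kinase gene Srpk3 was 279, 411 and 247 in the controls against 325, 199 and 219 with AAV-NDNF. Rnps1 was 1419.8 ± 163 in the controls against 1599 ± 139 with AAV-NDNF. The 43 other splicing regulators had a median of 0.013. Among those, Khdrbs2 (SLM1), a neuronal STAR protein, was 99.99, 66.5 and 93.99 in the controls against 130.4, 137 and 99.7 with AAV-NDNF, and Rbm25 was 2276, 1944 and 2420.4 in the controls against 2410.5, 2704 and 2672 with AAV-NDNF. AAV-GFP library 2 was the lowest library for Snrpn, Rnps1, Khdrbs2 and Rbm25 and the highest for Srpk3, but not for Luc7l. Without AAV-NDNF library 1, 11 genes of the 4 lists had an unadjusted p under 0.05, and the share among all genes was then 8.78%.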

How the data were processed

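RNA sequencing of 3 AAV-GFP and 3 AAV-NDNF libraries was analysed; the labels call them biological replicates. Per the submitters' processing notes, the authors used cutadapt, HISAT2, HTSeq, DESeq2 and the mm10 build; versions, annotation and strand setting are not given in the sources used here. The deposited signal per gene is a read count that the authors divided by a size factor per library, which was read from the values: 100% of them became whole reads, within 0.001, after a factor per library was undone. The same table holds, per the file headers, log2 fold changes and their standard errors, a Wald score (not used here), and p-values with adjusted p-values, all from the DESeq2 run of the authors.

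The 17480 of 28162 genes that reached 10 normalized counts in 3 or more libraries were tested on log2(value + 1) with limma 3.58.1 (R 4.3.3; trend and robust settings), two-sided, with Benjamini-Hochberg adjustment over all of them and a threshold of 0.05. No covariate was used. Alternatives were other scalings, filters and pseudocounts, a replicate block, edgeR 4.0.16 and DESeq2 1.42.0 on recovered reads, and leaving out each library. Libraries held 15335789 to 20060987 reads. Members and lists were chosen with earlier results of these data known. Named members are 25 set regulators, those with an unadjusted p under 0.05, and the 2 smallest p and the highest and lowest mean of each family; each list of other splicing genes gives its 2 smallest p, except that 1 gene is not reported here. Mbp and Gfap, also in the rule, are given in the closing section. Positions and merged exon lengths come from GENCODE M21, of the same build, and pseudogene copies were found with BLAST 2.17.0.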

Additional observations from a re-analysis of the deposited data

How the results depend on the processing

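With all 6 libraries kept, 0 members passed limma, edgeR or DESeq2 after adjustment over all genes in every alternative run, 1 member had an unadjusted p under 0.05 in each of them, and the median log2 fold change of the members stayed between 0.026 and 0.055. Of all genes, 55 passed in DESeq2, 6 with the replicate block, 3 with no filter and 0 in the others, and 4.41% to 4.72% had an unadjusted p under 0.05. With single libraries left out, 0 members passed, where 43 genes did without AAV-GFP replicate 2, 11 without AAV-NDNF replicate 3, 1 without AAV-NDNF replicate 1 and 0 without the others. The number of members at an unadjusted p under 0.05 ran from 0 to 3 (3.11% to 8.78% of all genes) and the median from −0.014 to 0.086. Genes of the 4 other splicing lists at an unadjusted p under 0.05 numbered 1, or 2 with upper quartile scaling, and 1 to 11 with single libraries left out. Leaving out AAV-GFP replicate 2, a choice made after seeing the data, took the members without overlap from 2 to 7. The log2 ratio of Mbnl2 to Mbnl1 (difference 0.027) ran from −0.034, without AAV-NDNF replicate 1, to 0.098 with single libraries left out. The cause of these moves was not tested.

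Of 585 values for the 39 named members over 15 alternatives, 0 passed the threshold (smallest adjusted p = 0.465). The sign turned under some alternative for 18 of the 39, in 3 of them (Celf1, Hnrnpll and Srsf12) with all 6 libraries kept; the largest such value was 0.34 (Celf6). Same-numbered libraries had correlations of −0.09, 0.0485 and 0.0801, so the numbers were not taken as pairs, and not every library correlated best with its own number. The fit with the replicate block gave 1 member at an unadjusted p under 0.05 and a median of 0.033, and 6 genes passed adjustment where 0 did without it. The widest interval was that of Celf6, the member with the lowest mean, from −0.56 to 1.25, and AAV-GFP replicate 2 is its low value (30.3). How far depth limits the members was not tested.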

Other observations

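Cell type markers give the tissue in which these transcripts were measured. Summed astrocyte markers (8 of 8 present) were 172512 to 219932 with AAV-GFP and 149159 to 174136 with AAV-NDNF, and Gfap, the intermediate filament gene of reactive astrocytes, averaged 108506 ± 17588 and 84320.3 ± 8021 (SD, n = 3; limma adjusted p = 0.984). Oligodendrocyte markers (8 of 8) summed to 524962 to 723160 and 541711 to 586279, with AAV-GFP replicate 2 the highest of the 6, and Mbp of myelin averaged 328212 ± 69667 and 307847 ± 19185. Motor neuron markers (6 of 6) summed to 6108 to 7419 and 6347 to 7329. Oligodendrocyte precursor markers (6 of 6) summed to 6037 to 7982 and 6077 to 7305, and endothelial markers (6 of 6) to 4356 to 4951 and 3581 to 4997. Skeletal muscle and forebrain markers stayed under 50 normalized counts in sum in every library.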
